A study of Mus musculus with 10 samples.

Results

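The 8 genes described here belong to the Nodal and activin signaling pathway: the ligand genes Nodal, Gdf3, Inhba and Inhbb, the co-receptor gene Tdgf1, the receptor gene Acvr2b and the inhibitor genes Lefty1 and Lefty2. They were taken by symbol from the 36066 genes of the expression table as a list chosen with earlier results of these data known, and all 8 symbols were found. RNA of mouse cells was sequenced in 10 libraries to compare parthenogenetic and fertilized embryonic stem cells (ESCs), the primordial germ cell-like cells (PGCLCs) made from each, and primordial germ cells (PGCs) of the embryo.

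All libraries are labelled with the strain C57BL6, and each of the 5 groups had 2 replicates. ESCs were a female ES cell line from fertilized embryos, and pESCs a parthenogenetic ES cell line from activated oocytes, which carries maternal chromosomes alone. By the methods of the study both lines carried an Actin-GFP transgene and were derived on mouse fibroblast feeders. Established lines were kept in medium with serum and LIF, and were held in a 2-inhibitor medium with LIF before induction. The methods do not state the medium of the sequenced stem cells. ESC-PGCLCs and pESC-PGCLCs passed through epiblast-like cells, made over 2 days with activin A at 2 ng/ml and bFGF at 1 ng/ml by the labels, and then for 4 days received BMP4 at 500 ng/ml with SCF (100 ng/ml), EGF (50 ng/ml) and LIF (1000 IU). Activin A is thus a ligand of the pathway that both PGCLC groups were given earlier, and the methods of the study state higher doses of activin A and bFGF than the labels. PGCLCs were sorted as cells positive for both SSEA1 and CD61, and the labels of the PGCs, germ cells from embryos, give no embryonic day. The methods of the study describe PGCs of 2 embryonic stages from female embryos, sorted with SSEA1 and CD61 or with SSEA1 alone. Which of these stages the PGC libraries hold is not given by the labels. The study describes its libraries as biological replicates, but nothing says whether the replicates of a stem cell group came from separate lines, so p-values measure the spread between these libraries, and each origin may be 1 line. The labels name no batch or date.

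Nodal, GDF3 and the activins, dimers of the products of Inhba and Inhbb, are secreted ligands that bind type II receptors such as ACVR2B together with type I receptors, and the receptors phosphorylate SMAD2 and SMAD3. Nodal and GDF3 also need a co-receptor, of which CRIPTO, the product of Tdgf1, is the main one in the early embryo, while activin signals without it. LEFTY1 and LEFTY2 are secreted inhibitors that block Nodal and are themselves induced by it, with FOXH1 as the DNA-binding partner of the SMADs. Nodal signaling patterns the early embryo and is active in the epiblast, from which PGCs arise.

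RefSeq promoter windows were at hand for 5 of the 8 genes, and the 250 bases before the start of Tdgf1, Nodal and Acvr2b are printed because these genes showed the strongest fall, a fall and a rise on differentiation. Capitals mark matches, on either strand, to the FOXH1 motif AATNNACA and to CAGAC, the short site that SMADs bind. Coordinates are those of GRCm38.p6.
Tdgf1 promoter (chr9:110946159-110946408, minus strand): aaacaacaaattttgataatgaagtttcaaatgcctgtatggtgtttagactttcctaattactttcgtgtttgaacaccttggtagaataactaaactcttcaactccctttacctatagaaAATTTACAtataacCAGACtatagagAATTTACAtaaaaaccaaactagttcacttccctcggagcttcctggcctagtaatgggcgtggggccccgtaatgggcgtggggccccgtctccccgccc
Nodal promoter (chr10:61417722-61417971, plus strand): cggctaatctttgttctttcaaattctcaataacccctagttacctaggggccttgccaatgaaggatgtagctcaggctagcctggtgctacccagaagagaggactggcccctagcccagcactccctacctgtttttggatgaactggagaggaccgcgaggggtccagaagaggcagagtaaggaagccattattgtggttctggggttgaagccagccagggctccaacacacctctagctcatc
Acvr2b promoter (chr9:119401928-119402177, plus strand): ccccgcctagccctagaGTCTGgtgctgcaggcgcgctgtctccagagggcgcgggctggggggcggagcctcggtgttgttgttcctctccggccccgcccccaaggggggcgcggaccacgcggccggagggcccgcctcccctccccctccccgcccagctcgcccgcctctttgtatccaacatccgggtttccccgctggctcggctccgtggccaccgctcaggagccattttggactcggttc
The Tdgf1 window held 2 FOXH1 matches, both with the same 8 letters, and 1 match to CAGAC that lies between them. FOXH1 matches occurred in 10.9% of all 32851 windows of this length, and CAGAC matches in 42.2%. The Acvr2b window held 1 CAGAC match, and the windows of Nodal, Inhba and Inhbb held none of either motif. The full SMAD box GTCTAGAC, found in 0.167% of all windows, was in none of the 5 windows. The windows also differed in base composition, with 42.0% G and C for Tdgf1, 53.2% for Nodal and 72.8% for Acvr2b, where the median of all windows was 52.4%. A match is a description of the letters only, and the Acvr2b window overlaps the first bases of the gene as GENCODE places it.

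Before the results, the identity of the cells was checked with marker lists. The late germ cell transcripts Ddx4 and Dazl summed to 1271 to 2102 TPM in PGCLC libraries. TPM is a level scaled by gene length and library total. The sums were 2148 and 2398 TPM in PGCs and 13.6 to 21.8 TPM in stem cells. The 6 early PGC markers, mostly Dppa3, summed to 4678 to 5785 TPM in PGCLCs and to 3288 and 4303 TPM in PGCs. In stem cells that sum was 388 to 905 TPM. Of the 6, Prdm14 alone did not rise clearly, at means of 17.6 and 13.0 TPM in ESCs and pESCs. It was at 17.4 and 14.6 TPM in ESC-PGCLCs and pESC-PGCLCs. The PGCLC and PGC libraries also held RNAs of other cell types. The 7 measured gonadal somatic markers summed to 16.4 and 18.7 TPM in ESC-PGCLCs, 32.3 and 29.4 TPM in pESC-PGCLCs and 58.4 and 51.9 TPM in PGCs, against at most 0.378 TPM in stem cells, and 6 blood markers, mostly haemoglobin, to 137 and 151, to 1099 and 956, and to 737 and 591 TPM. The 8 fibroblast markers summed to 0.184 to 0.559 TPM in stem cell libraries and to 3.91 to 11.1 TPM in PGCLC and PGC libraries. The 6 extraembryonic endoderm markers summed to 0.387 to 0.891 TPM and to 4.43 to 17.2 TPM in the same libraries. The study combined PGCLCs with gonadal somatic cells in later steps, and the labels do not place the sequenced PGCLCs before or after these. The part of these RNAs in the results was not tested, and in such bulk libraries a change in the share of a cell type and a change in RNA per cell cannot be told apart. Pou5f1, the pluripotency gene that PGCs retain, was at 0.374 and 0 TPM in ESC-PGCLCs, 2.98 and 2.88 TPM in pESC-PGCLCs and 3.14 and 1.63 TPM in PGCs. It was at 23.5 and 19.0 TPM in ESCs and 7.80 and 7.49 TPM in pESCs. Sox2 went the other way, at 97.3 and 110 TPM in ESC-PGCLCs against 23.9 and 29.7 TPM in pESC-PGCLCs. The 6 pluripotency markers summed to 188 and 220 TPM in ESC-PGCLCs, 134 and 146 TPM in pESC-PGCLCs and 218 and 202 TPM in PGCs.

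The libraries held 6779833 to 18573301 reads on genes, as recovered from the deposited values, with the fewest in ESC-PGCLCs, where low levels are thus least certain. Differences between groups are log2 fold changes of TPM + 1, tested with limma over the 27259 genes that reached 0.1 TPM in 2 or more libraries (SE is the standard error), and a gene was called when its adjusted p was under 0.05 and the change at least 2-fold. With 2 libraries against 2, the smallest p of an exact permutation test is 0.333, and the p-values given here are those of limma's model of the variance. Scaling matters here. Centring each library on the 9024 genes with at least 1 TPM everywhere moves well-expressed genes by 0.37 (pESC against ESC), -0.44 (pESC-PGCLC against ESC-PGCLC), 0.01 (ESC-PGCLC against ESC), -0.79 (pESC-PGCLC against pESC), -0.65 (PGC against ESC-PGCLC), -0.21 (PGC against pESC-PGCLC) and -0.81 (the interaction) on the log2 scale, and the median of all genes by at most 0.26.

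In stem cells the pathway genes were ordered by level as Tdgf1, Gdf3, Lefty2, Lefty1, Nodal, Acvr2b and Inhbb, with no Inhba read, and this order of means held in ESCs and pESCs alike. In all 3 germ cell groups Gdf3 and Acvr2b led instead. Nodal, Gdf3, Tdgf1, Lefty1 and Lefty2 were lower in every germ cell library than in every stem cell library, and Acvr2b was higher in every germ cell library. The plot of levels by library shows this exchange gene by gene.

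**Figure D1:**
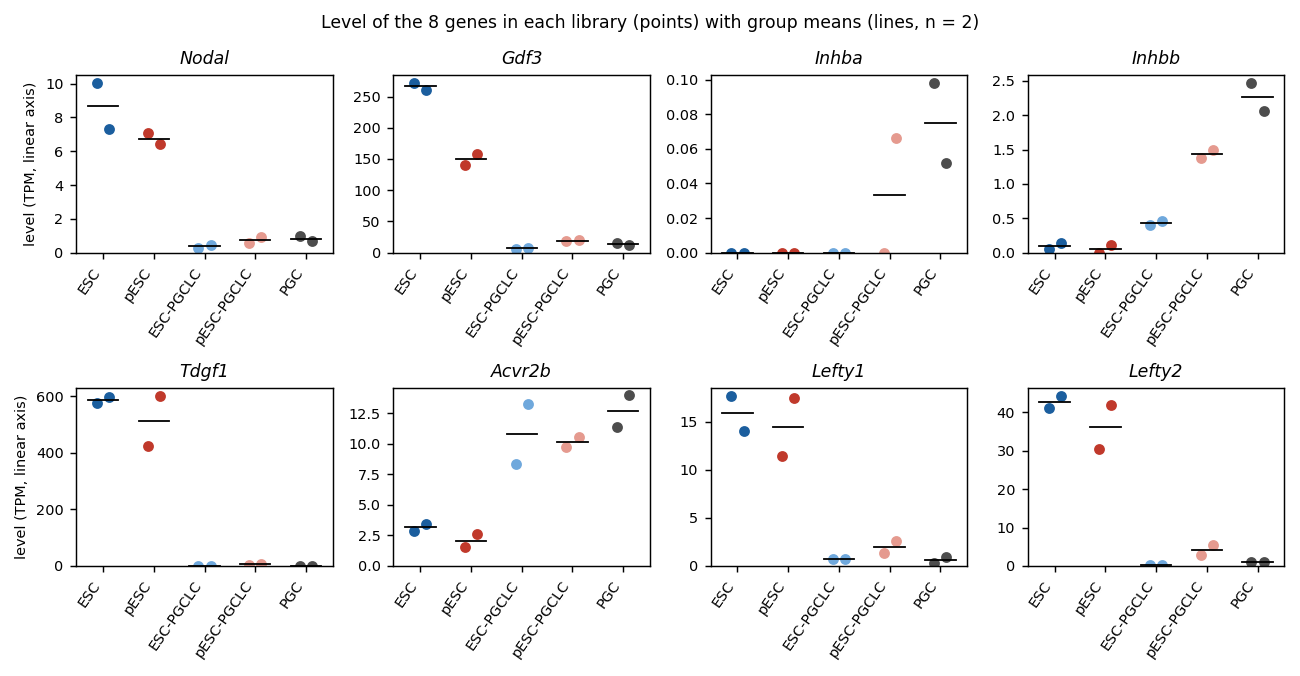
Level of each of the 8 genes (TPM, linear axes that start at 0, scaled per gene) in the 10 libraries, with points for libraries and lines for group means (n = 2). Nodal, Gdf3, Tdgf1, Lefty1 and Lefty2 are high in the ESC and pESC libraries and low in the other 6, while Acvr2b and Inhbb run the other way and Inhba stays below 0.1 TPM.

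Nodal (chromosome 10, 61417972 to 61425338, plus strand, GRCm38), the ligand that names the pathway, was at 10.1 and 7.31 TPM in ESCs and 7.06 and 6.44 TPM in pESCs. In ESC-PGCLCs it was at 0.301 and 0.469 TPM, in pESC-PGCLCs at 0.561 and 0.913 TPM and in PGCs at 0.973 and 0.687 TPM. The germ cell values rest on 3 to 18 reads a library, and those of ESC-PGCLCs on 3 and 4, which is at the floor of 3 reads. Nodal fell on differentiation from both origins, by 2.79 on the log2 scale from ESCs (SE 0.211, adjusted p = 2.81e-05), where mean TPM was 22.5-fold lower, and by 2.16 from pESCs (adjusted p = 0.000126), where it was 9.16-fold lower. Between pESCs and ESCs the log2 fold change was -0.31 (95% interval -0.80 to 0.18), and after median centring it was 0.02. Among the germ cell groups, the 2 PGC and the 2 pESC-PGCLC libraries overlapped, and no difference was called.

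Gdf3 (chromosome 6, 122605403 to 122610087, minus strand), a ligand of the same family that uses the same receptors, stood at 272 and 261 TPM in ESCs and at 141 and 159 TPM in pESCs, so the parthenogenetic libraries lay apart and lower. That log2 fold change of -0.83 (95% interval -1.17 to -0.49) had an adjusted p of 0.0484 but missed the 2-fold limit, and after median centring it was -0.46 with an adjusted p of 0.101. In germ cells Gdf3 was at 6.33 and 7.504 TPM in ESC-PGCLCs, 18.7 and 19.5 TPM in pESC-PGCLCs and 15.4 and 12.8 TPM in PGCs. Gdf3 thus fell from both origins, 38.5-fold in mean TPM from ESCs (log2 fold change -5.08, adjusted p = 1.11e-06) and 7.85-fold from pESCs (log2 fold change -2.91, adjusted p = 7.70e-06). Of the 4 ligand genes among the 8 it alone was called between the PGCLC groups, higher in pESC-PGCLCs with a log2 fold change of 1.35 (with SE 0.146 and adjusted p = 0.000654), which median centring brought to 0.94, under the 2-fold limit. PGCs lay between the PGCLC groups, with log2 fold changes of 0.93 against ESC-PGCLCs (adjusted p = 0.00384, under 2-fold) and -0.42 against pESC-PGCLCs (adjusted p = 0.106).

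Tdgf1 (chromosome 9, 110939603 to 110946158, minus strand) encodes CRIPTO and was the most abundant of the 8 genes in stem cells, at 576 and 597 TPM in ESCs and 426 and 600 TPM in pESCs, which overlapped. In ESC-PGCLCs it was at 1.36 and 0.656 TPM, in pESC-PGCLCs at 2.96 and 6.97 TPM and in PGCs at 0.538 and 0.296 TPM. The fall was the deepest of the 7 genes tested from either origin. Mean TPM was 581-fold lower in ESC-PGCLCs than in ESCs (log2 fold change -8.21 with SE 0.339, limma adjusted p = 2.72e-06) and 103-fold lower in pESC-PGCLCs than in pESCs (log2 fold change -6.50, adjusted p = 8.87e-06). On the germ cell side the reads were few, 17 and 7 in ESC-PGCLCs, 66 and 172 in pESC-PGCLCs, and 9 and 7 in PGCs.

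Tdgf1 was higher in pESC-PGCLCs than in ESC-PGCLCs, with a log2 fold change of 1.51 (adjusted p = 0.0155), and lower in PGCs than in pESC-PGCLCs, by 1.99 on the log2 scale (adjusted p = 0.0227). Neither call held without pESC-PGCLC replicate 2, the library at 6.97 TPM, when the changes were 1.00 (adjusted p = 0.0777) and -1.49 (adjusted p = 0.116). They were also lost without ESC-PGCLC replicate 2 (adjusted p = 0.10) and without PGC replicate 1 (adjusted p = 0.0821), respectively. Of the 100-base stretches of Tdgf1, 3.17% also occur in the pseudogene Tdgf1-ps1, which was listed at 3.15 to 6.395 TPM in stem cells and at 0 in every germ cell library.

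Lefty1 (chromosome 1, 180935022 to 180938400, plus strand) and Lefty2 (chromosome 1, 180893108 to 180899103, plus strand) are neighbouring genes for the inhibitors. Lefty1 was at 17.7 and 14.1 TPM in ESCs and 11.4 and 17.5 TPM in pESCs, and Lefty2 at 41.2 and 44.2 TPM in ESCs and 30.5 and 41.8 TPM in pESCs. The ESC and pESC libraries overlapped for both genes, and no difference was called. Lefty1 then stood at 0.718 and 0.699 TPM in ESC-PGCLCs, 1.34 and 2.54 TPM in pESC-PGCLCs and 0.268 and 0.882 TPM in PGCs. Lefty2 stood at 0.322 and 0.282 TPM, from 4 and 3 reads, in ESC-PGCLCs, at 2.74 and 5.45 TPM in pESC-PGCLCs and at 1.14 and 1.02 TPM in PGCs. Both inhibitor genes fell from both origins. From ESCs the log2 fold changes were -3.30 for Lefty1 (adjusted p = 7.04e-05) and -5.07 for Lefty2 (adjusted p = 5.71e-06), and from pESCs -2.40 (adjusted p = 0.000436) and -2.90 (adjusted p = 9.43e-05).

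Among germ cells the calls of the 2 inhibitors differed, but the genes were not tested against each other. Lefty2 was higher in pESC-PGCLCs than in ESC-PGCLCs, with a log2 fold change of 1.92 (with SE 0.265 and adjusted p = 0.00178). On 195 against 7 reads the ratio of levels was 13.7, with a 95% interval of 6.53 to 34.6 that covers counting error only. For Lefty1 the change went the same way, at 0.75 (adjusted p = 0.116), with libraries that did not overlap. On 62 against 11 reads its ratio was 2.8, with a 95% interval of 1.4 to 5.8 from counting. Within a library Lefty2 was 2.05 to 3.14 times Lefty1 in TPM in all stem cell and pESC-PGCLC libraries, but 0.449 and 0.404 times in ESC-PGCLCs, and 4.26 and 1.15 times in PGCs. That ratio was not tested and rests on few reads, for Lefty2 and Lefty1 4 and 6 in ESC-PGCLC replicate 1. They were 3 and 5 in ESC-PGCLC replicate 2 and 19 and 3 in PGC replicate 1. PGCs held less Lefty2 than pESC-PGCLCs, by 1.24 on the log2 scale (adjusted p = 0.0353), a call that was lost when any of the 4 libraries was left out (adjusted p 0.0596 to 0.154). The 2 genes share 97 of their 100-base stretches, 5.85% of those of Lefty1 and 3.87% of those of Lefty2, so a small part of their reads could be split between them.

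Acvr2b (chromosome 9, 119402118 to 119434995, plus strand), a type II receptor for Nodal, GDF3 and activins, rose on differentiation from both origins. It was at 2.90 and 3.41 TPM in ESCs and 1.56 and 2.58 TPM in pESCs, and at 8.35 and 13.3 TPM in ESC-PGCLCs, 9.75 and 10.6 TPM in pESC-PGCLCs and 11.4 and 14.0 TPM in PGCs. Every germ cell library lay above every stem cell library. The log2 fold change was 1.48 from ESCs (SE 0.251, adjusted p = 0.00177) and 1.88 from pESCs (adjusted p = 0.000585), or 3.43-fold and 4.90-fold in mean TPM, and both calls held in all 12 alternative fits of each comparison. Among germ cells the log2 fold changes of Acvr2b lay between -0.05 and 0.29, with 95% intervals reaching from -0.63 to 0.87. Its level relative to its paralog Acvr2a, computed within each library, ranged from 0.670 to 1.41. The gene Gm47320 overlaps Acvr2b on the other strand, and no source used here says that counting used strand.

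Inhbb (chromosome 1, 119415465 to 119422248, minus strand), the subunit of activin B, and Inhba (chromosome 13, 16011851 to 16031621, plus strand), that of activin A, were the lowest of the 8 genes in stem cells. Inhbb was at 0.0510 and 0.138 TPM in ESCs (2 and 7 reads) and at 0 and 0.108 TPM in pESCs (0 and 4 reads). It was at 0.395 and 0.462 TPM in ESC-PGCLCs, 1.38 and 1.499 TPM in pESC-PGCLCs and 2.47 and 2.06 TPM in PGCs, and no 2 of these groups overlapped. The rise was called from pESCs, with a log2 fold change of 1.21 (with SE 0.142 and adjusted p = 0.000303), and in PGCs against ESC-PGCLCs, at 1.19 (adjusted p = 0.00182), the second with values of 0.76 after quantile normalization and 0.82 after median centring, both under 2-fold. Because TPM + 1 understates changes of such low genes, the ratio from reads is also given, 26.8 for pESC-PGCLCs over pESCs (110 against 4 reads, 95% interval 10.2 to 100.0). From ESCs the log2 fold change was 0.38 (adjusted p = 0.0567), and the ratio from reads 4.25 (16 against 9 reads, 95% interval 1.77 to 10.9). This rise was called with a pseudocount of 0.1 TPM (1.48, adjusted p = 0.0276) and with voom on reads (2.12, adjusted p = 0.0421). Between the PGCLC groups the log2 fold change was 0.77 (adjusted p = 0.00640), under 2-fold on the TPM + 1 scale, where the ratio from reads was 3.39 (110 against 16 reads, 95% interval 1.99 to 6.13), and it was called with a pseudocount of 0.1 TPM (1.54, adjusted p = 0.044).

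The rank of the groups by Inhbb was also that of the summed gonadal somatic markers and of 2 partner genes. The summed extraembryonic endoderm markers had the same rank among germ cells. They summed to 6.88 and 4.43 TPM in ESC-PGCLCs, 10.1 and 7.49 TPM in pESC-PGCLCs and 17.2 and 13.3 TPM in PGCs. Most of that sum was Gata6, at 4.21 and 3.08, 6.73 and 5.46, and 12.3 and 9.36 TPM in these groups. By group mean Afp, Ttr and Apoa1 had this rank too, while Sox7 and Sox17, both under 1 TPM, did not. Inha, whose product pairs with the activin subunits to form inhibins, was at 0.221 and 0.0570 TPM in ESCs, 0 in pESCs, 0.285 and 0.333 TPM in ESC-PGCLCs, 3.03 and 2.81 TPM in pESC-PGCLCs and 4.89 and 4.43 TPM in PGCs. Fst, the gene of follistatin that binds activins, was at 8.16 and 9.25 TPM, 14.9 and 14.0 TPM and 37.2 and 27.1 TPM in the same 3 germ cell groups. Of the 7 measured gonadal somatic markers, 3 reached 1 TPM in both ESC-PGCLC libraries and 6 did so in pESC-PGCLCs and in PGCs, led by Wt1 at 7.16 and 8.05, 13.0 and 11.0, and 26.2 and 22.4 TPM. The part of gonadal somatic RNA in the Inhbb values was not tested. Inhba had no read in 7 libraries, which allows up to 0.0395 to 0.115 TPM by the floor of 3 reads, and 0.0665 TPM in pESC-PGCLC replicate 2 and 0.0981 and 0.0520 TPM in PGCs, from 4, 4 and 3 reads. It did not pass the filter on low values and was not tested, and it overlaps the antisense genes B230303A05Rik and Gm48444.

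**Figure D2:**
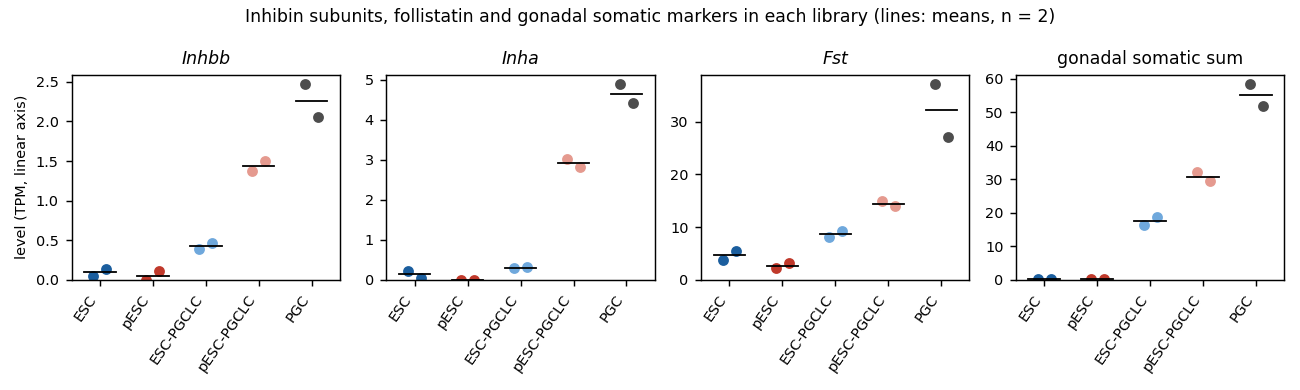
Level (TPM, linear axes that start at 0) of Inhbb, Inha and Fst and the summed level of 7 gonadal somatic markers in the 10 libraries, with points for libraries and lines for group means (n = 2). In each panel ESC-PGCLCs are lowest, pESC-PGCLCs higher and PGCs highest among the germ cells, with marker sums of 16.4 to 58.4 TPM in germ cells and at most 0.378 TPM in stem cells.

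Counted over the 7 genes that passed the filter, pESCs against ESCs gave 0 calls by limma, where 0.165% of all genes tested were called higher and 0.616% lower. At an unadjusted p under 0.05, 1 of the 7 passed (Gdf3), a share near the 17.7% of all genes. The voom fit on recovered reads likewise called 0 of the 7. On differentiation from ESCs 5 were called lower and 1 higher, with 14.5% and 15.3% of all genes, and from pESCs 5 lower and 2 higher, with 6.8% and 20.8% of all genes. The share of members called lower was thus above the background of both comparisons. That share is a description only, because the genes were chosen with earlier results of these data known. The 5 that fell also ran together over the libraries. The median log2 fold change of the 7 genes was -3.30 and -2.40, against 0.05 and 0.22 for all genes tested.

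Between the PGCLC groups 3 of the 7 were higher in pESC-PGCLCs and 0 lower (background 10.3% higher and 3.08% lower). In PGCs 1 was higher and 0 lower than in ESC-PGCLCs (12.0% and 1.88%), a share near the background, and 0 were higher and 2 lower than in pESC-PGCLCs (2.07% and 1.6%). At an unadjusted p under 0.05, 5, 3 and 5 of the 7 genes passed in these 3 comparisons, where 35.3%, 42.0% and 29.2% of all genes did, so that the second count is near the background. The comparisons use the same germ cell libraries in pairs, so that their results are not independent. The split of all calls depended on scaling. The share of calls that were higher was 77.0% between the PGCLC groups and 51.8% after median centring, 75.4% and 46.7% in pESC-PGCLCs against pESCs, 86.4% and 40.1% in PGCs against ESC-PGCLCs, 56.4% and 25.8% in PGCs against pESC-PGCLCs, 21.1% and 69.9% in pESCs against ESCs, and 81.5% and 48.5% in the interaction of origin and differentiation.

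**Figure D3:**
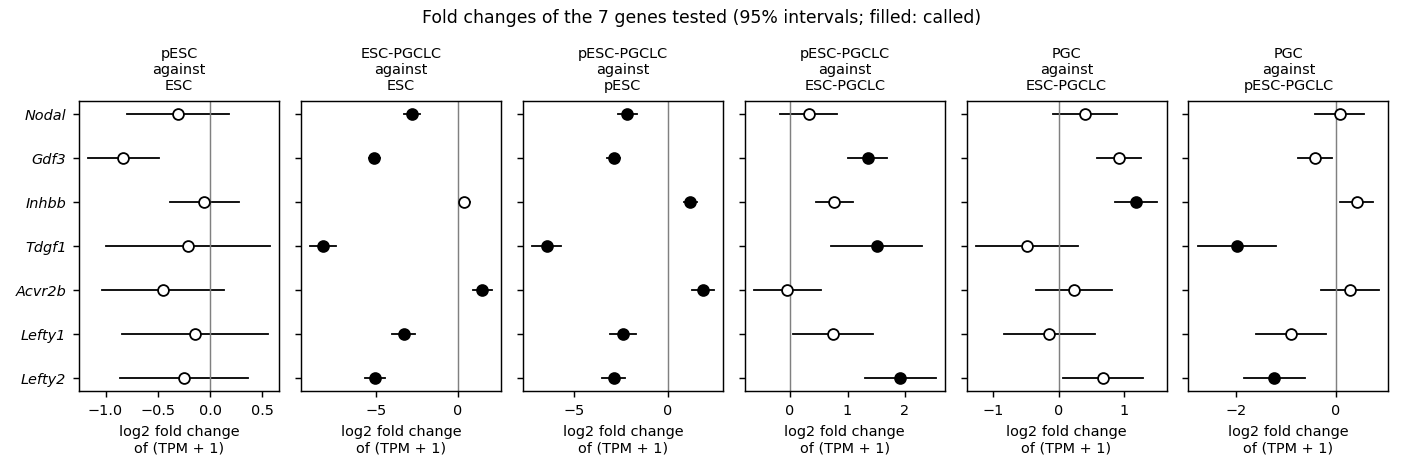
Log2 fold changes of TPM + 1 with 95% intervals for the 7 genes tested in 6 comparisons (each panel has its own linear axis), with filled points for called genes. All 5 genes that fell from ESCs also fell from pESCs, and between pESCs and ESCs no point is filled.

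Whether the response to differentiation depended on the origin of the stem cells was tested as an interaction, the change from pESCs minus that from ESCs. Gdf3 and Lefty2 fell less from pESCs, with interaction values of 2.18 (SE 0.206, adjusted p = 0.000558) and 2.17 (SE 0.374, adjusted p = 0.00526) on the log2 scale. Both were called in all 16 alternative fits, with ranges of 1.41 to 2.29 and 1.55 to 3.56. For Tdgf1 the value was 1.72 (adjusted p = 0.0372), but the call was lost in 10 of 16 alternatives, among them median centring (1.04, adjusted p = 0.144). It was lost on leaving out any single library of the 4 groups except pESC replicate 2 and pESC-PGCLC replicate 1 (adjusted p 0.0519 to 0.121 when lost). Inhbb, at 0.83 (adjusted p = 0.0219), was under 2-fold, and with a pseudocount of 0.1 TPM it was at 1.94 (adjusted p = 0.0669). For Nodal (0.63, 95% interval -0.06 to 1.32), Lefty1 (0.90, -0.09 to 1.89) and Acvr2b (0.40, -0.42 to 1.23) no interaction was called, and the value of Acvr2b turned to -0.24 after median centring. In all, 3 of the 7 were called higher and 0 lower, with 15.5% and 3.53% of all genes tested, and 4 passed at an unadjusted p under 0.05, as did 34.8% of all genes. The median over the 7 genes was 0.90, and that over all genes 0.21.

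**Figure D4:**
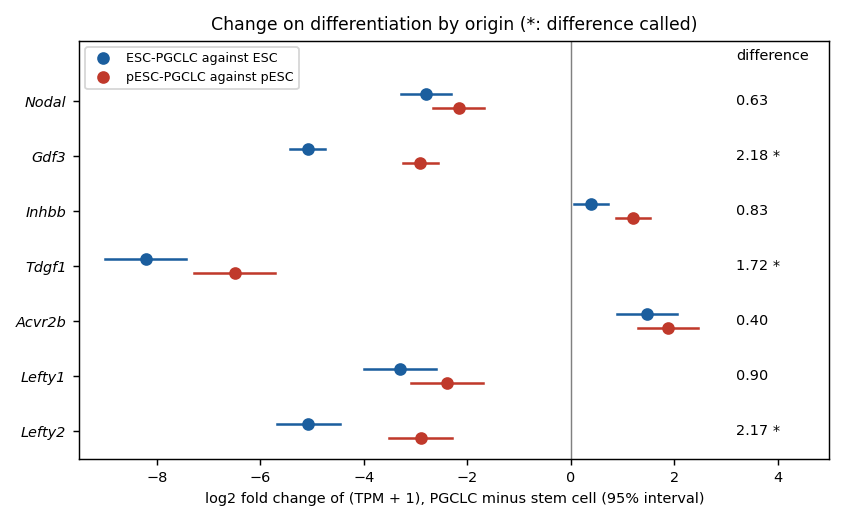
Log2 fold change of TPM + 1 on differentiation (linear axis, 95% intervals) from ESCs in blue and from pESCs in red for the 7 genes tested, with their difference at the right and a star where it was called. The intervals of the 2 origins lie apart for Gdf3, Lefty2, Tdgf1 and Inhbb, with differences of 2.18, 2.17, 1.72 and 0.83, the last not called.

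The surrounding pathway was read from 32 further genes, of which 31 were measured. On differentiation from ESCs 12 were called higher and 6 lower, where 15.3% and 14.5% of all genes were, with a median of 0.45 on the log2 scale against 0.05 for all genes. From pESCs 13 were called higher and 1 lower, where 20.8% and 6.8% of all genes were, with a median of 0.67 against 0.22. Scaling moved the second count, to 8 higher and 3 lower after median centring and to 10 and 3 after quantile normalization. Of 4 receptor and co-receptor genes 2 were called higher from both origins, and so were 2 of 4 SMADs and partner genes. Acvr2a (from 2.81 ± 1.06 to 12.8 ± 0.478 TPM, SD, n = 2, in ESCs and ESC-PGCLCs) and the co-receptor gene Cfc1 rose in both, as did Smad2 (11.0 ± 1.98 to 28.8 ± 3.06 TPM) and Smad4, transducers of the signal, while Smad3 and the type I receptor gene Acvr1c were called from neither origin. So did the antagonist gene Tmeff1 and, among the negative regulators, Skil, Tgif2 and Smurf2, the last a ubiquitin ligase. The type I receptor gene Acvr1b had group means of 1.41 TPM in ESCs, 1.26 TPM in ESC-PGCLCs, 0.999 TPM in pESCs and 2.00 TPM in pESC-PGCLCs, and was called in neither comparison.

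Skil, whose product SnoN holds SMAD complexes inactive, had the largest change of the list. It was at 9.72 and 7.76 TPM in ESCs and 215 and 232 TPM in ESC-PGCLCs (log2 fold change 4.53, adjusted p = 6.02e-06), and at 15.3 and 20.5 TPM in pESCs and 82.6 and 107 TPM in pESC-PGCLCs (log2 fold change 2.34, adjusted p = 0.000157). Tgif1, a corepressor of SMADs, went the other way, from 80.7 and 65.6 TPM in ESCs to 4.82 and 4.89 TPM in ESC-PGCLCs (log2 fold change -3.66) and from 41.2 and 50.2 TPM in pESCs to 20.4 and 21.4 TPM in pESC-PGCLCs (log2 fold change -1.09). Foxh1, the DNA-binding partner, was at 18.7 and 14.1 TPM in ESCs and 5.42 and 5.24 TPM in pESCs, and it was the only one of the 31 called between the stem cells (log2 fold change -1.45, adjusted p = 0.0298). None of the 31 was called there without either ESC library or without pESC replicate 1, nor after quantile normalization. It fell to 3.08 and 2.70 TPM in ESC-PGCLCs, and stood at 10.7 and 10.04 TPM in pESC-PGCLCs and 13.0 and 9.16 TPM in PGCs.

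Between the PGCLC groups 5 of the 31 were higher and 2 lower in pESC-PGCLCs (background 10.3% and 3.08%), 4 in all without ESC-PGCLC replicate 2. Gdf11, a further ligand gene, was among the 5 (1.04, adjusted p = 0.0116). The 4 with the largest change were Tgif1 (1.90), Inha (1.58), Foxh1 (1.55) and Smad7 (-1.26, an inhibitory SMAD). PGCs differed from ESC-PGCLCs in 10 higher and 1 lower (background 12.0% and 1.88%; 3 higher and 1 lower after median centring), with Inha (2.11), Skil (-1.90), Fst (1.76) and Foxh1 (1.62) first, and from pESC-PGCLCs in Fst alone (1.08, adjusted p = 0.0321), where none was called without either pESC-PGCLC library or without PGC replicate 1, nor after quantile normalization or median centring. Among the mesendoderm genes that the pathway can induce, Eomes was called lower in ESC-PGCLCs (0.211 ± 0.131 TPM) than in ESCs (1.62 ± 0.0799 TPM, SD, n = 2), while Mixl1 and Foxa2 were called higher, at means of 1.89 and 1.20 TPM against 0.376 and 0.0761 TPM. None of these 3 was called from pESCs.

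**Figure D5:**
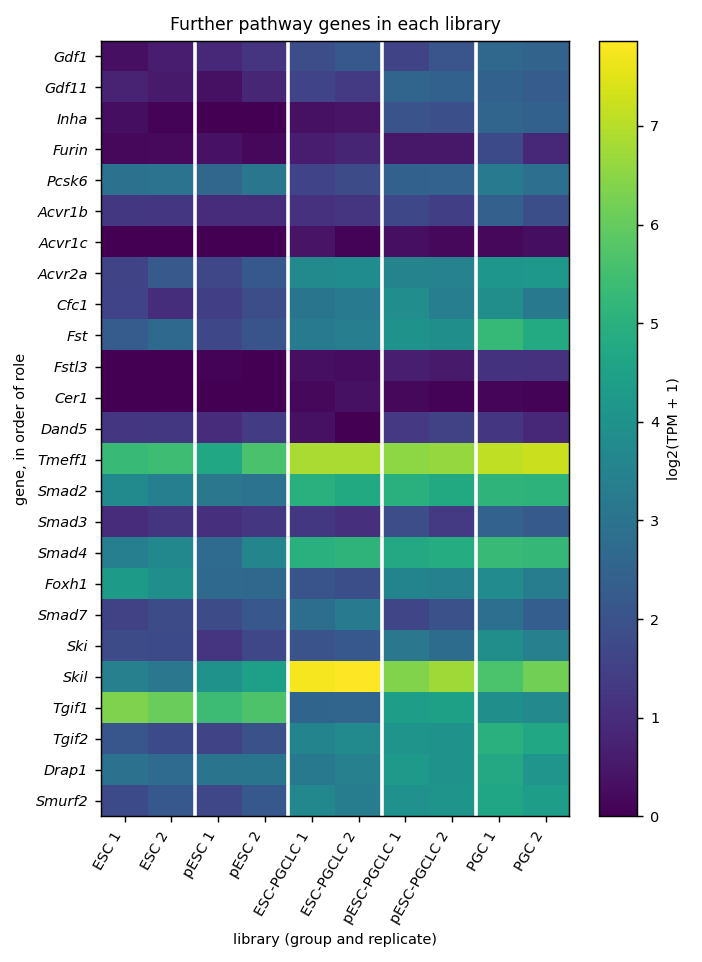
Level as log2(TPM + 1), by colour, of the measured further genes of the pathway (rows, in order of role, without the mesendoderm genes) in the 10 libraries (columns, by group). Skil is brightest in the ESC-PGCLC columns at 215 and 232 TPM, where Tgif1 is dark, and Smad2, Smad4 and Acvr2a are brighter in the 6 germ cell columns than in the 4 stem cell columns.

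Over the 10 libraries the 5 genes that fell ran together, with Pearson's r of 0.96 to 0.99 between any 2 of them on the log2(TPM + 1) scale, and r with Acvr2b was -0.90 to -0.95. These values describe 10 points that fall into stem cell and germ cell clusters, and no test is attached. Among 18225 other genes whose mean reached 1 TPM in some group, Nodal was most like Nanog (r = 0.997), a pluripotency factor, and Tdgf1 most like Apela (r = 0.999), a secreted peptide gene. Gdf3 was most like Tagln2 (r = 0.997), Lefty1 like Spp1 (r = 0.995), Lefty2 like Sod2 (r = 0.995), Acvr2b like Zhx1 (r = 0.992) and Inhbb like Tmem86a (r = 0.997). Nanog itself stood at a mean of 572 TPM in ESCs and 408 TPM in pESCs, and at 29.6, 31.9 and 37.6 TPM in ESC-PGCLCs, pESC-PGCLCs and PGCs.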

How the data were processed

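RNA of 10 mouse libraries in 5 groups was analysed, grouped by the labels. From reads aligned to mm10 and counted per gene, the authors deposited TPM of 36066 gene symbols, in 1 table whose columns all entered. The submitters' processing notes name Bowtie2, HISAT2, RSEM, R 3.4.2 and DESeq2, and the gene annotation is not given in the sources used here. The labels describe a NEBNext kit for libraries and the study's methods a Smart-seq2 protocol. TPM times the exon length of GENCODE M21 (35861 symbols with 1 gene, build GRCm38, which is mm10) gave whole reads, within 0.05, for 95.5% to 95.9% of values under 1000 reads, and for all 63 such values of the 8 genes. These reads gave the depth (6779833 to 18573301), floors of 3 reads and exact 95% intervals of ratios, which cover counting error only.

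Values were analysed as log2(TPM + 1). The 27259 genes that reached 0.1 TPM in 2 or more libraries were fitted in R 4.3.3 with limma 3.58.1, with group means as terms, variances that follow the level (5 residual and 2.81 prior degrees of freedom), and Benjamini-Hochberg adjustment over all genes of a comparison. Calls needed both an adjusted p below 0.05 and a 2-fold change. As alternatives, 0.1 TPM was added in place of 1, the filter was raised to 1 TPM or dropped, and other fits used quantile normalization, rescaling of each library to the median of 9024 genes, the compared groups alone, a replicate block, voom on recovered reads, and leaving out each replicate.

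The 8 genes, the list of 32 further pathway genes and the marker lists were chosen with earlier results of these data known, and 1 further pathway gene is counted but not reported here. Named were the 8 genes, up to 4 called genes of the further list with the largest change in each comparison and genes whose role the text needed, markers, and the genes most like each of the 8 by Pearson's r. Promoter windows came from RefSeq (GRCm38.p6) and matched 5 of the 8 genes. Other steps ran in Python 3.11.15 with scipy 1.17.1, numpy 2.4.6, pandas 2.3.3 and matplotlib 3.10.9.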

Additional observations from a re-analysis of the deposited data

Results flagged for a closer look

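A result is listed here when the change on differentiation differed between the 2 origins by the test of the difference itself (limma, adjusted p under 0.05 over all genes), given as the change from pESCs minus that from ESCs on the log2 scale of TPM + 1. Among the 8 genes these were Gdf3 (2.18, adjusted p = 0.000558), Lefty2 (2.17, adjusted p = 0.00526), Tdgf1 (1.72, adjusted p = 0.0372) and Inhbb (0.83, adjusted p = 0.0219, under 2-fold). Among the 31 further pathway genes there were 10, of which 8 were higher and 2 lower where 15.5% and 3.53% of all genes were called, namely Foxh1 (2.99, adjusted p = 0.000566), Tgif1 (2.57, adjusted p = 0.000502), Skil (-2.19, adjusted p = 0.00327), Inha (1.77, adjusted p = 0.00128), Smad7 (-1.56, adjusted p = 0.0189), Dand5 (1.32, adjusted p = 0.0191), Eomes (1.31, adjusted p = 0.0148), Fst (1.28, adjusted p = 0.0212), Ski (1.20, adjusted p = 0.0390) and Gdf11 (1.11, adjusted p = 0.0365). Rescaling by median centring moves a well-expressed gene by -0.81 in this comparison. After it 4 genes of the further list were called higher and 3 lower. Quantile normalization gave 5 higher and 3 lower, so the split of these calls depended on scaling. Inha had no read in either pESC library, so its value depends on the pseudocount. Its level in pESC-PGCLCs was at least 12.5-fold higher than the floor of 3 reads per library in pESCs.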

How the results depend on the processing

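The 22 calls among the 49 results of single genes (7 genes in 7 comparisons) kept their direction in every alternative, 15 of them kept the call in each one, and 7 lost it in some. The replicate block and voom on recovered reads kept all 22, and the same numbers of the 8 genes were called under the block. Nothing says whether same-numbered libraries shared more than a number. Correlations of their deviations were -0.051 to 0.238 over 14839 genes, highest between pESCs and PGCs. The block gave 8 interaction calls of the further list against 10. Beyond counting noise, replicates differed most in pESCs and PGCs. Chi-square per degree of freedom was 50.9 and 43.2 there and 8.24 to 12.1 in the other groups. On the compared groups alone, the calls among the 8 genes were 1 of 3 between the PGCLC groups, 0 of 1 in PGCs against ESC-PGCLCs and 0 of 2 in PGCs against pESC-PGCLCs. On differentiation that fit kept all 6 calls from ESCs and all 7 from pESCs, and why the others were lost was not tested. In PGCs against ESC-PGCLCs the count was 3 with a pseudocount of 0.1, 0 after quantile normalization and 0 after median centring, and leaving out a replicate gave 1 to 2 (2 without ESC-PGCLC replicate 2 or PGC replicate 2). In PGCs against pESC-PGCLCs it was 1 with no filter and 0 to 1 on leaving out a replicate (0 without pESC-PGCLC replicate 2 or PGC replicate 1). On the compared groups alone the Lefty2 call between the PGCLC groups had an adjusted p of 0.0561, Tdgf1 0.14 there and 0.147 in PGCs against pESC-PGCLCs, and Inhbb 0.0639 in PGCs against ESC-PGCLCs. For the further list, pESCs against ESCs (1) gave 0 after quantile normalization and on the compared groups alone, 2 after median centring and with voom, and 0 to 2 without a replicate. PGCs against ESC-PGCLCs (11) gave 5, 4 and 0 after quantile normalization, median centring and on the compared groups alone. PGCs against pESC-PGCLCs (1) gave 0 under each of these 3, 2 with voom and 0 to 2 without a replicate. Without a replicate the PGCLC groups differed in 4 to 7 genes of that list (7 with all, fewest without ESC-PGCLC replicate 2), and the interaction held 5 to 11 (10 with all, fewest without ESC replicate 1, pESC replicate 1 or ESC-PGCLC replicate 2).

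No reversed value was a called one. In pESCs against ESCs median centring gave log2 fold changes of 0.019 for Nodal, 0.15 for Tdgf1, 0.20 for Lefty1 and 0.11 for Lefty2, and quantile normalization 0.18 for Lefty1 and 0.051 for Lefty2. Nodal in PGCs against pESC-PGCLCs turned to -0.065 and -0.011 under quantile normalization and median centring. Acvr2b turned to -0.40 and -0.35 in PGCs against ESC-PGCLCs and to -0.13 and -0.24 in the interaction under the same pair. On leaving out a replicate, values spanned 0 from -0.13 to 0.019 for Inhbb, -0.46 to 0.034 for Tdgf1 and -0.44 to 0.14 for Lefty1 in pESCs against ESCs, -0.35 to 0.26 for Acvr2b between the PGCLC groups, -0.065 to 0.54 for Acvr2b and -0.43 to 0.14 for Lefty1 in PGCs against ESC-PGCLCs, and -0.069 to 0.23 for Nodal in PGCs against pESC-PGCLCs. Over all genes, calls in pESCs against ESCs (213) were 459 with voom, 402 with the filter at 1 TPM, 134 with none, 122 after quantile normalization, 78 under the replicate block and 0 on the compared groups alone (4276 at an unadjusted p under 0.05). In PGCs against ESC-PGCLCs (3772) they were 6140 with a pseudocount of 0.1, 1904 after quantile normalization, 1952 after median centring and 0 on the compared groups alone, and in PGCs against pESC-PGCLCs (1000) 1956 with voom, 631 with no filter and 0 on the compared groups alone. Voom gave 12295 against 8122 from ESCs and 11317 against 7535 from pESCs. Causes beyond those stated were not tested. Where a replicate was left out, the lone library was assumed to vary like the other groups. Depth limits Inhba, Inhbb in stem cells and ESC-PGCLCs, and Nodal, Lefty1 and Lefty2 in ESC-PGCLCs, at 8 reads or fewer a library. The same holds for Tdgf1 in ESC-PGCLC replicate 2 and PGC replicate 2 (7 reads each). Lefty1 in PGC replicate 1 had 3 reads.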

Other observations

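Dand5, the gene of an antagonist that binds Nodal, was among the 31 further pathway genes and was outside the largest changes. It was at 1.37 and 1.43 TPM in ESCs, 1.01 and 1.60 TPM in pESCs, 0.265 and 0 TPM in ESC-PGCLCs, 1.48 and 1.88 TPM in pESC-PGCLCs and 1.39 and 0.839 TPM in PGCs. Only the ESC-PGCLC libraries stood apart, on 2 and 0 reads, and the gene was called lower in ESC-PGCLCs than in ESCs (-1.09 on the log2 scale with a limma adjusted p of 0.00407) and higher in pESC-PGCLCs than in ESC-PGCLCs (1.25, adjusted p = 0.00525). The related antagonist gene Cer1 had no read in the 4 stem cell libraries and 1 or 2 reads in each of the others. These 2 genes were chosen once their values were known.

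Pcsk6, the gene of a convertase that cleaves Nodal precursors, was at 6.78 and 6.89 TPM in ESCs and 1.98 and 2.46 TPM in ESC-PGCLCs, a log2 fold change of -1.29 (limma, adjusted p = 0.00139), and at 8.19 and 6.36 TPM in PGCs. In pESCs it was at 5.02 and 7.51 TPM and in pESC-PGCLCs at 4.43 and 4.50 TPM, and it was not called between these. Furin, the other convertase gene listed, was at or below 2.41 TPM in all 10 libraries. Both were likewise chosen with their values known.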
